A study of Rattus norvegicus with 10 samples.

Results

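Pdgfra, Fgf10 and Wnt5a are 3 of the 32622 genes counted in soleus-derived myoblasts of the rat, and they were taken as a group because each is best known from fibroblast-like cells of connective tissue. They were picked from the genes that the study listed as changed against Control, so their values against Control, and those of HS3 against HS1, are given as a description with no test. All 3 passed the expression filter, which kept 13691 genes over the 10 libraries. The question was whether the 3 genes moved together over the course of mechanical unloading.

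The cells came from the soleus, a postural muscle, of 3-month-old male Wistar rats. Control rats were not suspended, and the other rats spent 1, 3, 7 or 14 days in hindlimb suspension (HS1, HS3, HS7 and HS14), which takes the load off the hindlimbs. RNA was sequenced in 2 libraries for each of the 5 groups. According to the study's methods, digested muscle was first grown as a mixed culture on coated dishes. The cells were then detached and kept for a short time on an uncoated dish, to which fibro-adipogenic progenitors (FAPs) stick, and those still floating were seeded again and grown as myoblasts. All groups, Control included, therefore passed through culture before RNA was taken. The sources used here do not say if both libraries of one group stem from separate animals, so the p-values measure the spread between these libraries, which may be technical.

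PDGFRA is a receptor tyrosine kinase at the cell surface that binds platelet-derived growth factors and is the usual surface marker of FAPs, the stromal cells that lie between muscle fibres. FGF10 is a secreted growth factor made by mesenchymal cells during the growth of limbs and lungs, and it acts mainly through a splice form of the receptor FGFR2 on neighbouring cells. WNT5A is a secreted Wnt protein that acts largely without beta-catenin, through the receptor tyrosine kinase ROR2 and Frizzled receptors, on cell polarity and movement.

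The upstream bases of the 3 genes are shown so that the sequence at their start sites can be set beside the way their RNA levels moved. Each stretch holds the 250 bases before the RefSeq start site, read 5′ to 3′ on the strand of the gene in the build GRCr8, and capitals mark the motifs that were searched for and found. The Pdgfra stretch is chr14:33408517-33408766 on the minus strand, the Fgf10 stretch is chr2:52533689-52533938 on the plus strand, and the Wnt5a stretch is chr16:3703415-3703664 on the plus strand.
Pdgfra: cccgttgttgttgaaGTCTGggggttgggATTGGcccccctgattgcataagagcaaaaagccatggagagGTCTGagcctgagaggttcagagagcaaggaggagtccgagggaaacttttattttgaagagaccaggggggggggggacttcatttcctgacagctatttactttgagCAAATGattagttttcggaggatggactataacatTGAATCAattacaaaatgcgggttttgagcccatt
Fgf10: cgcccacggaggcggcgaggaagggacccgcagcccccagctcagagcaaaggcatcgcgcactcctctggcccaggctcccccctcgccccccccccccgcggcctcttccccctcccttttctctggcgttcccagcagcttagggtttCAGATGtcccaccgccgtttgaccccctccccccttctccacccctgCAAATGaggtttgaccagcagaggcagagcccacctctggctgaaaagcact
Wnt5a: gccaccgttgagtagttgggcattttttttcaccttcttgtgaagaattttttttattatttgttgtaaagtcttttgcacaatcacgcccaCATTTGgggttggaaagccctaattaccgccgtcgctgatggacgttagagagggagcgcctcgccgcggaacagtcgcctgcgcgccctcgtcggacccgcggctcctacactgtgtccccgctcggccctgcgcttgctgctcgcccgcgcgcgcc
RefSeq gives 7 transcripts for Pdgfra, 1 for Fgf10 and 3 for Wnt5a. The Pdgfra stretch overlaps the annotated span of its own gene in part. The Wnt5a stretch lies wholly within the span of its gene, so the start site used for Wnt5a lies inside the annotated gene. Bases G and C made up 47.2% of the Pdgfra stretch, 67.2% of that of Fgf10 and 57.2% of that of Wnt5a, against a median of 52% over 27457 RefSeq promoter windows.

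Motifs were searched on both strands of windows of 300 bases, the 250 upstream bases and the 50 that follow. All 3 windows held CANNTG, the E-box bound by basic helix-loop-helix factors, with 1 match for Pdgfra at position -70, 2 for Fgf10 at -99 and -52, and 1 for Wnt5a at -158, counted from the start site. An E-box was found in 71.6% of all promoter windows, so most promoters hold one. Each of the 3 windows held 1 E-box spelled CAAATG on one strand or the other, a form that overlaps with CANNTG, was singled out after the windows were seen and occurred in 13.8% of all windows. TGANTCA, a pattern wider than the motif of the AP-1 factors, which has C or G at its centre, was also searched. It was found at -35 for Pdgfra and in neither other window, against 7.33% of all windows. The Pdgfra match reads TGAATCA, with A at the centre, and so is not the AP-1 motif itself. The Pdgfra window also held 1 CCAAT box (37.7% of all windows) and 2 copies of CAGAC, the short motif of SMAD proteins (50%). No match was found in the 3 windows for the TATA box TATAAA (14.3%), for GGGCGG (34.9%) or for the TEAD motif GGAATG (13.9%). Such matches describe the letters only and carry no information on binding in these cells.

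Total counts lay between 20200972 and 28175200 per library, and the floor of 3 counts, taken as the smallest detectable level, lay between 0.104 and 0.152 CPM, the count of a gene scaled to a common library total after TMM normalization. Among counts of 1 to 20, between 69.4% and 72.0% were even numbers in each library, which bears on the lowest counts given here. Across libraries the CPM of 1 gene can be compared, whereas CPM of different genes cannot, since they are not corrected for gene length. Within a group the 2 libraries of all genes differed by a median of 0.0997 to 0.158 on the log2 scale.

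The receptor gene Pdgfra was lowest in HS1 cultures, was highest in HS3 cultures, and lay below Control again in HS7 and HS14 cultures. Its level was 146.5 and 148.7 CPM in the Control libraries (3707 and 3920 counts), 30.4 and 31.5 CPM at HS1, 304.1 and 297.1 CPM at HS3, 62.4 and 62.7 CPM at HS7, and 59.0 and 57.3 CPM at HS14. No library of any group overlapped with another group, and the order of the levels was HS3, Control, HS7, HS14, HS1. Of the neighbours in that order, HS7 and HS14 lay closest, and their difference did not pass the test given further on. The means were 147.6 ± 1.5 CPM in Control, 30.9 ± 0.765 at HS1, 300.6 ± 5.00 at HS3, 62.5 ± 0.167 at HS7 and 58.2 ± 1.21 at HS14 (SD, n = 2 each). The HS1 mean was thus 4.77-fold below Control, and the HS3 mean was 2.04-fold of Control. The 2 libraries of a group differed by no more than 0.05 on the log2 scale, less than the median gene in the same groups.

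The ligand gene Fgf10 followed the same course up to HS3 and then fell far lower than the receptor gene. Its level was 14.3 and 13.6 CPM in Control (362 and 359 counts), 1.80 and 2.44 CPM at HS1 (44 and 56 counts), 23.8 and 17.7 CPM at HS3 (468 and 446 counts), 0.567 and 0.632 CPM at HS7 (14 and 16 counts), and 1.38 and 2.02 CPM at HS14 (40 and 48 counts). The order was HS3, Control, HS1, HS14, HS7, where the libraries of HS1 and HS14 overlapped and the other neighbours did not. The means were 14.0 ± 0.492 CPM in Control, 2.12 ± 0.453 at HS1, 20.8 ± 4.28 at HS3, 0.600 ± 0.0454 at HS7 and 1.70 ± 0.451 at HS14 (SD, n = 2 each). The HS7 mean was 23.3-fold below Control, against 6.59-fold for HS1 and 8.21-fold for HS14. Fgf10 was measured with the fewest counts of the 3 genes, and its 2 HS14 libraries were 0.52 apart on the log2 scale.

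The Wnt ligand gene Wnt5a had the same order of groups as Pdgfra but a shallower fall after HS3. Its level was 95.7 and 92.0 CPM in Control (2420 and 2425 counts), 23.2 and 29.4 CPM at HS1, 167 and 172.5 CPM at HS3, 76.3 and 58.4 CPM at HS7, and 57.9 and 47.8 CPM at HS14. The groups did not overlap, although the lower HS7 library lay just above the higher HS14 library. The means were 93.8 ± 2.62 CPM in Control, 26.3 ± 4.4 at HS1, 169.8 ± 3.88 at HS3, 67.4 ± 12.7 at HS7 and 52.8 ± 7.10 at HS14 (SD, n = 2 each). Relative to Control the mean was 3.57-fold lower in HS1, 1.81-fold of Control in HS3, 1.39-fold lower in HS7 and 1.78-fold lower in HS14.

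**Figure D1:**
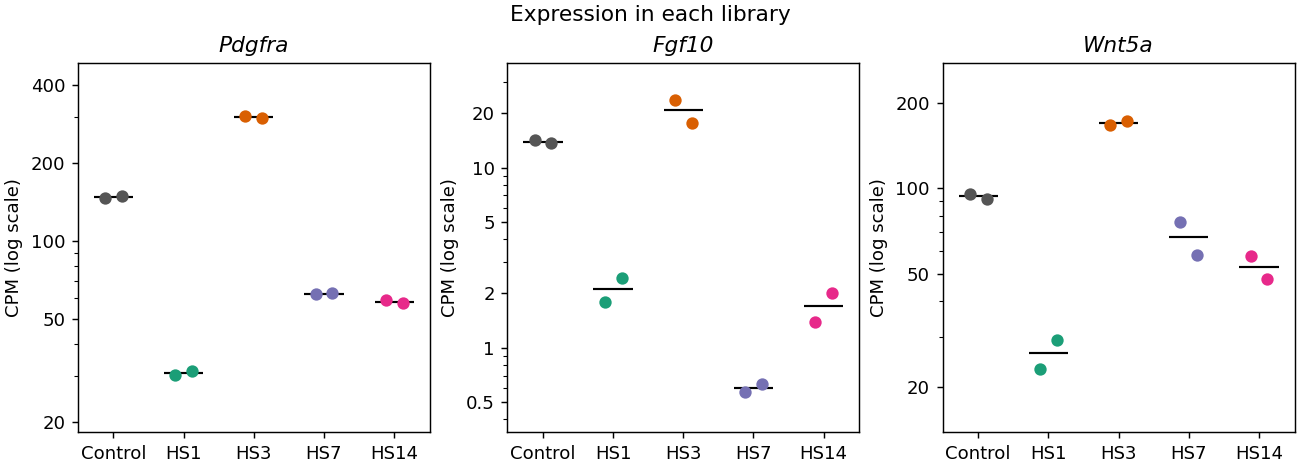
Level of Pdgfra, Fgf10 and Wnt5a in CPM (log scale, a separate axis for each gene) in the 2 libraries of each group; points are libraries and bars are group means. HS3 libraries are the highest for each of the 3 genes, HS1 libraries are the lowest for Pdgfra and Wnt5a, and HS7 libraries are the lowest for Fgf10 at 0.567 and 0.632 CPM.

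In HS1 cultures all 3 genes were lower than in Control. The log2 fold change was -2.25 ± 0.07 for Pdgfra, -2.72 ± 0.19 for Fgf10 and -1.84 ± 0.09 for Wnt5a (± SE, n = 2 libraries a group). All 3 met the thresholds for a differentially expressed gene (DEG), an adjusted p under 0.01 in edgeR and a log2 fold change beyond 1.5, in a comparison where 2.18% of the genes tested were downregulated DEGs. The libraries of all 3 lay below both Control libraries, as did those of 31.0% of the genes. Membership in such a list was part of how the 3 genes were chosen.

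In HS3 cultures the 3 genes lay above Control in both libraries, as did 29.8% of all genes tested. The log2 fold change was 1.02 ± 0.06 for Pdgfra, 0.56 ± 0.15 for Fgf10 and 0.85 ± 0.07 for Wnt5a (± SE, n = 2). None reached the fold-change threshold of 1.5, and 0.777% of genes were upregulated DEGs. Fgf10 also fell short of the adjusted p in edgeR, which Pdgfra and Wnt5a passed, as did 7.00% of all genes upwards. Set against HS1, the log2 fold change of HS3 was 3.29 ± 0.09, 3.29 ± 0.21 and 2.7 ± 0.10 in the same order of genes, and all 3 were among the 5.69% of genes called as upregulated DEGs. Their libraries did not overlap between HS1 and HS3, as for the 34.3% of genes that were higher in both HS3 libraries.

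In HS7 and HS14 cultures the 3 genes lay below Control by different amounts. At HS7 the log2 fold change was -1.24 ± 0.06 for Pdgfra, -4.53 ± 0.23 for Fgf10 and -0.48 ± 0.12 for Wnt5a (± SE, n = 2). At HS14 it was -1.35 ± 0.06, -3.06 ± 0.20 and -0.83 ± 0.07 in the same order. Only Fgf10 met the DEG thresholds at these times, where 1.63% of genes at HS7 and 2.01% at HS14 were downregulated DEGs. At HS7 Wnt5a did not pass the adjusted p in edgeR, which 16.2% of all genes passed downwards, whereas all 3 genes passed it in DESeq2. The libraries of all 3 genes were below both Control libraries at both times, as were those of 37.1% of all genes at HS7 and 35.2% at HS14. These 4 comparisons share the same Control libraries.

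The step from HS3 to HS7 is a comparison that did not enter the choice of the 3 genes, although its libraries did. All 3 genes fell. Pdgfra fell by 2.28 ± 0.08 on the log2 scale (edgeR, adjusted p = 7.71e-10), Fgf10 fell by 5.12 ± 0.26 (adjusted p = 6.45e-09) and Wnt5a fell by 1.35 ± 0.11 (adjusted p = 1.43e-06; ± SE, n = 2 libraries a group). In this comparison 12.9% of all genes passed the adjusted p in the same direction and 3.28% were downregulated DEGs, among them Pdgfra and Fgf10 but not Wnt5a. Both HS7 libraries lay below both HS3 libraries for all 3 genes, as for 32.7% of all genes. The HS3 and HS7 libraries also entered the study's comparisons with Control, so the test is not fully independent of the choice of genes. For Fgf10, which the study also listed as lower at HS7, the fall was in part fixed by that choice.

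From HS7 to HS14 no change of the 3 genes passed the threshold in the edgeR fit of these 4 libraries or in DESeq2, but for Fgf10 and Wnt5a other edgeR settings changed the call. The log2 fold change was -0.10 ± 0.07 for Pdgfra (edgeR, adjusted p = 0.338), 1.5 ± 0.44 for Fgf10 (adjusted p = 0.0139) and -0.34 ± 0.15 for Wnt5a (adjusted p = 0.146; ± SE, n = 2). Of the 3 genes, 1 had an unadjusted p under 0.05 in edgeR, and 23.5% of all genes passed the adjusted threshold in this step. Both HS14 libraries lay below both HS7 libraries for Pdgfra and Wnt5a, as for 34.7% of all genes, and above them for Fgf10, as for 33.1%. Fgf10 was higher in both HS14 libraries, with 40 and 48 counts against 14 and 16, and passed the threshold in 2 alternative fits (adjusted p = 0.00655 with no expression filter and 0.00131 with all 10 libraries in 1 fit). Wnt5a passed with no expression filter (adjusted p = 0.000192) and with the replicate number as a block (adjusted p = 0.00356). It also passed without the second HS7 library, at a log2 fold change of -0.51, where the lone HS7 library is assumed to vary as the HS14 libraries do.

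**Figure D2:**
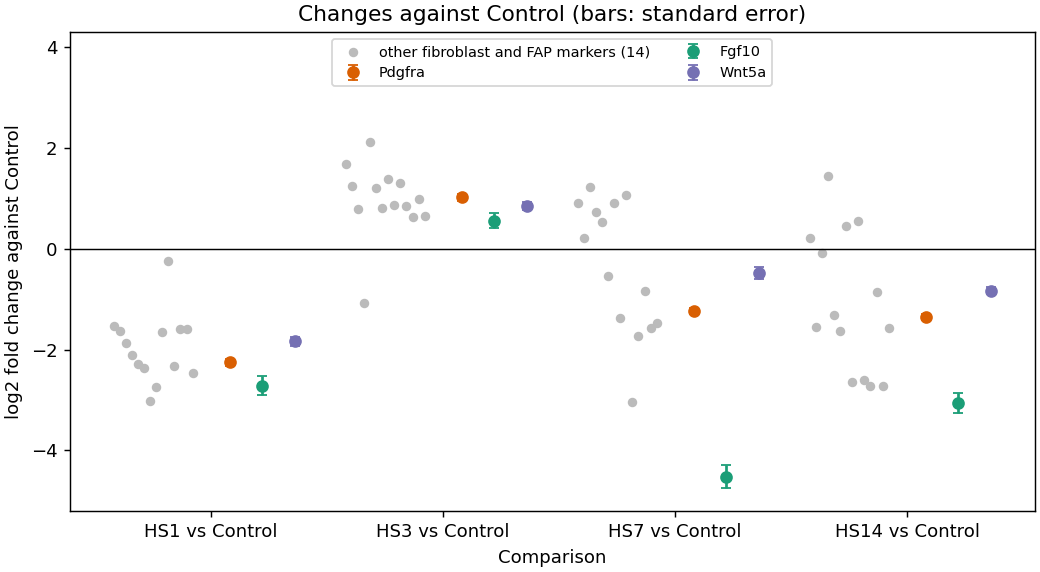
log2 fold change against Control of Pdgfra, Fgf10 and Wnt5a (coloured points, bars are standard errors) in HS1, HS3, HS7 and HS14, from edgeR fits of 2 libraries against 2; grey points are 14 other markers of fibroblasts and FAPs, described further on. The 3 genes have the same sign in HS1, HS3, HS7 and HS14 against Control, and Fgf10 lies furthest from 0 at HS7, at -4.53.

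Whether the genes moved in step was also read from the ratio of their counts within a library. The size of such a ratio depends on gene length, so only its change between groups is described. The ratio of Pdgfra to Fgf10 lay between 10.2 and 10.9 in Control, between 12.8 and 16.7 at HS1 as in HS3, between 96.2 and 106.2 at HS7, and between 28.1 and 42.2 at HS14. The ratio was thus alike in HS1 and HS3, although both genes were several-fold lower in HS1 than in HS3, and was several-fold higher in HS7 and HS14, with no overlap with the other groups. The ratio of Pdgfra to Wnt5a moved far less and lay between 1.53 and 1.62 in Control, 1.07 and 1.31 at HS1, 1.72 and 1.82 at HS3, 0.818 and 1.07 at HS7, and 1.02 and 1.2 at HS14. HS3 libraries had the highest values and did not overlap with the other groups, and HS1, HS7 and HS14 libraries lay below both Control libraries. The group means of this log2 ratio spanned from -0.09 at HS7 to 0.82 at HS3, with a pooled SD of 0.17 within groups. These ratios are a description, since the Control and HS1 libraries entered the choice of the genes.

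**Figure D3:**
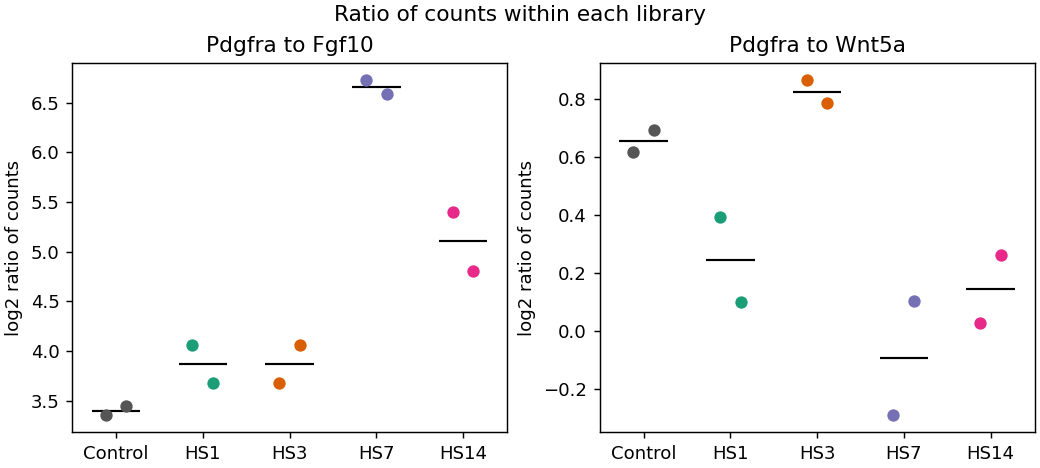
log2 ratio of counts of Pdgfra to Fgf10 (left) and Pdgfra to Wnt5a (right) in each library; points are libraries, bars are group means, and the axes of the panels differ in range. The left ratio is highest in the HS7 libraries, and the right ratio is highest in the HS3 libraries.

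Over the 10 libraries, the log2 CPM of Pdgfra and Wnt5a had a Pearson r of 0.966 and a Spearman rho of 0.964. For Pdgfra and Fgf10 r was 0.819 and rho 0.612, and for Fgf10 and Wnt5a r was 0.666 and rho 0.600. These values are descriptions of 10 points that fall into 5 groups of 2, and they share the groups' differences. Without the 2 HS3 libraries, the farthest from the median, r was 0.928, 0.655 and 0.369 in the same order. Many genes share such a course: 0.774% of all other genes had a higher r with Pdgfra than Wnt5a did, and 6.87% a higher r with Pdgfra than Fgf10 did. For the weakest pair, 12.3% of genes had a higher r with Fgf10 than Wnt5a did.

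The genes most like each of the 3 were taken by r over the 10 libraries among the 260 genes that carry a symbol and have a mean log2 CPM of at least 3. For Pdgfra these were Smoc2 (r = 0.994), which codes for a matricellular calcium-binding protein, S100b (0.993), which codes for a calcium-binding protein known from glia, and Twist2 (0.993), a transcription factor of mesenchymal cells. For Fgf10 they were Niban1 (0.986), Nrn1 (0.985), which codes for the neuritin protein of neurons, and Cyp26b1 (0.981), which codes for an enzyme that breaks down retinoic acid. For Wnt5a they were Adamtsl3 (0.991), Col16a1 (0.989) and Lama4 (0.989), of which the last 2 code for a collagen and for a laminin chain. Smoc2 and Twist2 also stand in the list of fibroblast markers used further on. The genes nearest to Fgf10 were lowest in HS7, as Cyp26b1 shows with means of 72.4, 30.8, 73.2, 19.5 and 27.2 CPM in Control, HS1, HS3, HS7 and HS14. Those nearest to Wnt5a were lowest in HS1, as Lama4 shows with means of 361.6, 81.8, 679.8, 275.2 and 184.3 CPM. A symbol was known only for genes that the study had called, so the search covered those alone.

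The receptors and ligands that work with the 3 proteins were read from lists of pathway genes. The symbols matched here were again only those of genes that the study called. The counts and the p-values of these genes are therefore not independent evidence of a direction. Matched were 2 of 7 symbols of the PDGF list, 2 of 23 of the FGF list and 8 of 32 of the Wnt list, where Pdgfra, Fgf10 and Wnt5a count in the list sizes but not in the matches. Genes without a match, among them Fgfr1, Fgfr2, Ror1 and Ryk, were not analysed here.

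Pdgfrb, the second receptor of the family, had a course like that of Pdgfra, with means of 167.5 ± 4.15 CPM in Control, 57.5 ± 0.546 at HS1, 364.9 ± 24.4 at HS3, 103.3 ± 25.3 at HS7 and 99.0 ± 4.38 at HS14 (SD, n = 2). It was a downregulated DEG in HS1 (log2 fold change -1.54) and fell from HS3 to HS7 by 1.84 on the log2 scale (edgeR, adjusted p = 8.45e-05). The ligand gene Pdgfb had the opposite late course. Its means were 0.963 ± 0.355 CPM in Control, 1.15 ± 0.350 at HS1, 1.51 ± 0.118 at HS3, 7.40 ± 0.145 at HS7 and 4.86 ± 0.747 at HS14 (SD, n = 2). Pdgfb was an upregulated DEG at HS7 and HS14 against Control (log2 fold changes 2.93 and 2.33; 1.95% and 0.524% of all genes), while both receptors had lower means than in Control.

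In the FGF list, Fgf7, a ligand of the same receptor form as FGF10, was lower in HS1, a downregulated DEG (log2 fold change -1.80), and lay at -0.04 against Control in HS3. Its means were 65.2 ± 0.138 CPM in Control, 18.7 ± 0.157 at HS1, 63.8 ± 2.25 at HS3, 23.8 ± 2.42 at HS7 and 34.5 ± 1.23 at HS14 (SD, n = 2). From HS7 to HS14 it rose by a log2 fold change of 0.54 ± 0.10 (SE; edgeR, adjusted p = 0.000433), while the difference of Fgf10 had the same sign without passing the threshold. Fgfr4, an FGF receptor of myogenic cells, was lowest in HS3, where the 3 genes were highest. It had means of 67.6 ± 1.36 CPM in Control, 68.8 ± 0.335 at HS1, 23.2 ± 2.65 at HS3, 111.6 ± 12.4 at HS7 and 129.5 ± 4.51 at HS14 (SD, n = 2), a downregulated DEG at HS3 and higher by 2.25 on the log2 scale at HS7 than at HS3 (edgeR, adjusted p = 7.28e-09). Fgfr4 was matched because the study listed it for HS3, so this rise was in part fixed by the choice.

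Ror2, the receptor of WNT5A, had means of 23.2 ± 1.32 CPM in Control, 4.81 ± 0.216 at HS1, 43.3 ± 5.25 at HS3, 7.86 ± 1.84 at HS7 and 6.41 ± 0.130 at HS14 (SD, n = 2). It was a downregulated DEG against Control at HS1, HS7 and HS14, with log2 fold changes of -2.27, -1.56 and -1.86. From HS3 to HS7 it fell by 2.48 on the log2 scale (edgeR, adjusted p = 9.42e-08), against 1.35 for Wnt5a itself. The study listed Ror2 for HS7 among other times, so this fall was in part fixed by the choice. Ligand and receptor thus had the same direction at each time against Control.

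The other 7 matched Wnt genes went in both directions. Against Control, of the 8 genes with Ror2, 4 were lower by adjusted p in HS1 (10.5% of all genes were lower), and 3 were higher in HS3 (7.00%). In HS7, 5 were lower and 2 higher (16.2% and 16.6%), and in HS14, 4 were lower and 2 higher (17.0% and 15.8%). The median log2 fold change of the 8 was -1.14, 0.58, -1.0 and -1.51 at HS1, HS3, HS7 and HS14, beside medians within 0.01 of 0 over all genes tested. The HS14 median was -1.16 without the second Control library.

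Among the inhibitors, Dkk3, of the dickkopf family, had means of 33.5 CPM in Control, 64.4 at HS3, 8.26 at HS7 and 5.68 at HS14, and it was a downregulated DEG at HS7 and HS14 (log2 fold changes -2.02 and -2.56). Dkk2, a secreted antagonist of LRP co-receptors, was a downregulated DEG at HS1, HS7 and HS14 (-1.93, -2.28 and -3.82). Sfrp1, which codes for a Wnt-binding decoy, was a downregulated DEG at HS7, with 4 and 2 counts in the HS7 libraries against 14 and 30 in Control, close to the floor. Wif1, which codes for another secreted Wnt inhibitor, went the other way and had a mean of 19.6 ± 1.35 CPM at HS7 against 4.21 ± 0.589 in Control (SD, n = 2; log2 fold change 2.22). Of the other ligands, Wnt11 was an upregulated DEG at HS7 (1.75) and Wnt4 a downregulated DEG at HS14 (-1.55). Celsr1, which codes for a cadherin of planar cell polarity, was an upregulated DEG at HS14 (2.11).

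The 3 genes are known from fibroblast-like cells, so the other genes of such cells were read from a marker list of 26 symbols, of which 14 besides Pdgfra were matched. In HS1, 12 of the 14 were lower than Control by adjusted p, as were 10.5% of all genes. In HS3, 13 were higher and 1 lower, the lower one being Dcn, which codes for the matrix proteoglycan decorin (7.00% and 4.51% of all genes). At HS7 the list split, with 7 lower, 4 higher and 3 not past the threshold, beside 16.2% of all genes lower and 16.6% higher. At HS14 there were 9 lower, 2 higher and 3 not past it, beside 17.0% and 15.8% of all genes, so that the 2 higher markers are near the share of all genes. From HS3 to HS7, 9 were lower and 2 higher, beside 12.9% and 10.1% of all genes. Against Control the median log2 fold change was -2.0, 0.93, -0.17 and -1.44 in HS1, HS3, HS7 and HS14. All of these genes were called by the study on these libraries, so neither their counts nor the p-values given next are independent of the direction at any time.

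Thy1, a surface protein of fibroblasts, was likewise highest in HS3 and below Control in the other groups, with means of 478.6 ± 9.44 CPM in Control, 158.5 ± 2.02 at HS1, 950.0 ± 98.4 at HS3, 159.9 ± 13.3 at HS7 and 72.6 ± 7.32 at HS14 (SD, n = 2). Col1a1, the collagen I chain, was high in HS3 (16123 ± 2740 CPM against 6771 ± 332 in Control) and was not below Control in HS7 (7786 ± 86.9). Dcn had means of 162.5 ± 3.87, 37.6 ± 0.588, 77.6 ± 3.78, 270.4 ± 49.6 and 446.6 ± 10.7 CPM in Control, HS1, HS3, HS7 and HS14, and thus lay above Control at HS7 and HS14, where Pdgfra lay below it. From HS3 to HS7 Dcn increased by a log2 fold change of 1.78 ± 0.12 (edgeR, adjusted p = 3.41e-07), while Thy1 fell by 2.59 (adjusted p = 8.28e-10). The study listed Thy1 for HS7 among other times, so its fall was in part fixed by the choice. Dpt, which codes for dermatopontin, was an upregulated DEG at HS3 (log2 fold change 2.13) from a level of 3.50 CPM in Control.

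**Figure D4:**
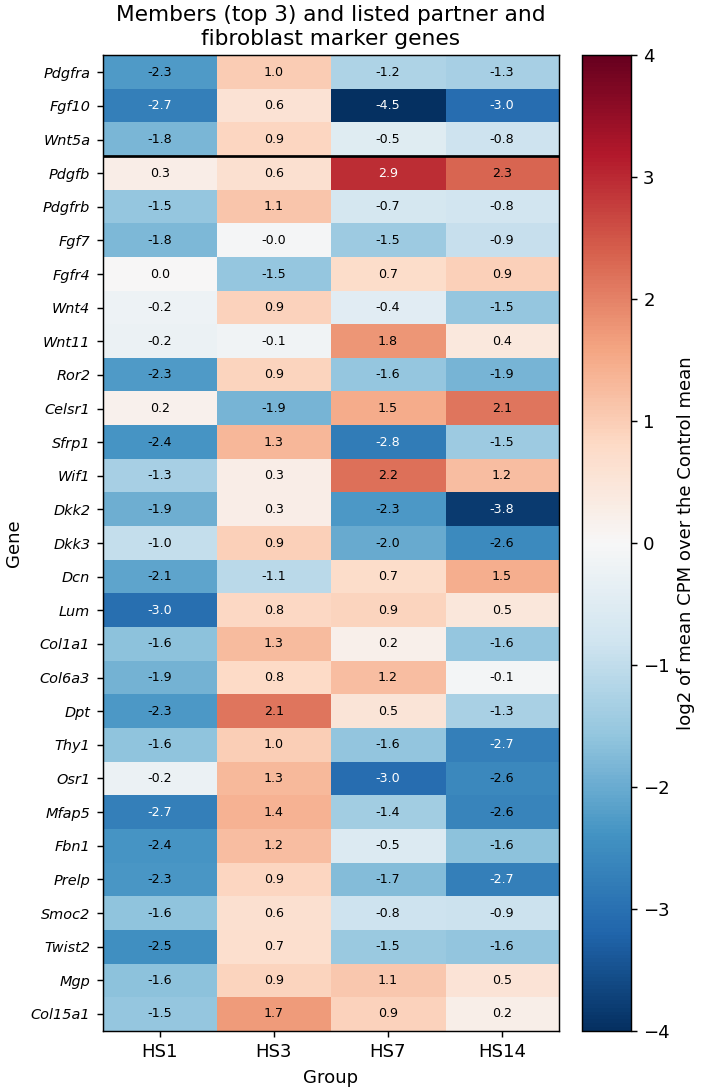
Group means of the 3 genes (top), of the matched PDGF, FGF and Wnt genes and of the 14 fibroblast and FAP markers, as log2 of mean CPM over the Control mean, in HS1, HS3, HS7 and HS14; colours end at -4 and 4. Pdgfrb and Ror2 have the signs of Pdgfra in all 4 groups, whereas Pdgfb, Fgfr4, Wnt11, Wif1 and Celsr1 lie above Control at HS7, as do 7 of the 14 markers (Dcn, Lum, Col1a1, Col6a3, Dpt, Mgp and Col15a1).

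The summed level of the 14 markers was 9529 to 10109 CPM in Control, 2934 to 2938 at HS1, 19880 to 24134 at HS3, 11266 to 11530 at HS7 and 4037 to 4463 at HS14. Col1a1 made up most of this sum, with means of 6771, 2173, 16123, 7786 and 2306 CPM in the same order. The sum therefore follows Col1a1 and does not stand for the list as a whole. In bulk RNA, fewer cells of a type and less RNA per cell cannot be told apart. Markers of other cells moved as well. The 5 matched myoblast markers, with Myog among them, summed to 332.4 to 347.3 CPM in Control, 171.2 to 183.3 at HS1, 576.9 to 607.6 at HS3, 960.3 to 1331 at HS7 and 240.2 to 288.6 at HS14. The 9 matched myotube markers summed to 1316 to 1400 CPM in Control, 907 to 1065 at HS1, 3046 to 3143 at HS3, 5213 to 8954 at HS7 and 973 to 1033 at HS14. The 2 HS7 libraries thus lay far apart, and 0 of the 9 passed the adjusted p upwards at HS7 against Control, beside 16.6% of all genes. Myog, a transcription factor of differentiating myoblasts, had means of 238.2, 111.4, 406.7, 776.4 and 167.4 CPM in the order of the groups. The satellite cell markers Pax7 and Myf5 were not analysed here, since their symbols were not matched.

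The summed myogenic markers thus had a lower midpoint in HS1 than in Control and were higher in HS3, as the 3 genes were. They were highest in HS7, where the 3 genes lay below Control, and below Control in HS14, as the 3 genes were. The study listed every matched myoblast and myotube marker for HS7, so the HS7 peak was in part fixed by the choice. In HS1, 4 of 5 myoblast and 5 of 9 myotube markers were lower by adjusted p, as were 10.5% of all genes. The mean of Msc went the other way, at 1.30-fold of Control in HS1 and 0.686-fold in HS3. Acta1, Tnnc1 and Myh7 lay near Control in HS1. The markers of vessels, nerve sheath, tendon and immune cells named next were chosen after their values were seen, except those at 0. All were matched only because the study had called them, so their directions at the listed times were in part fixed by the choice.

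The 6 matched endothelial markers summed to 94.5 to 104 CPM in Control, 34.4 to 34.7 at HS1, 142.3 to 158.6 at HS3, 53.1 to 67.2 at HS7 and 61.3 to 63.9 at HS14. Eng alone, which stromal cells also express, contributed a mean of 95.7 CPM in Control, 50.4 at HS7 and 47.9 at HS14. Of the other markers, Cdh5, Tie1, Vwf and Emcn went the other way at the late times, but Kdr did not. Kdr was a downregulated DEG at HS1 (log2 fold change -1.93) and an upregulated DEG at HS3 (1.51). At HS7 and HS14 it lay near Control (0.28 and 0.30), with libraries that overlapped. Cdh5, the cadherin of endothelial junctions, had means of 0.194, 0.13, 0.623, 2.61 and 4.79 CPM in Control, HS1, HS3, HS7 and HS14. Cdh5, Tie1, Vwf and Emcn, 4 of the 6, were upregulated DEGs against Control at HS7 and HS14 (1.95% and 0.524% of all genes), where the 3 genes lay below Control. The study had listed each of these 4 for HS14, and Cdh5 and Vwf for HS7 too, so these calls were in part fixed by the choice. Kdr was listed for HS1 and HS3, which likewise in part fixed its calls there. Emcn was at 0 in 4 libraries (1 Control, both HS1 and 1 HS3). The others that rose also had few counts in Control, such as 6 and 4 for Cdh5 and 8 and 16 for Tie1.

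Mural and Schwann cell markers also moved in both directions. The 3 mural markers summed to at least 197.9 CPM in Control, 73.1 in both HS1 libraries, 376.7 to 409.6 at HS3, 217.8 to 261 at HS7 and 153.5 to 182 at HS14. Beside Pdgfrb, given above, this sum held Notch3, with a mean of 31.5 CPM in Control and 135.8 at HS7, and Rgs5, which was at 0 in both Control libraries. The 3 Schwann cell markers summed to 25.1 to 27.3 CPM in Control, 5.92 to 6.99 at HS1, 54.5 to 58.0 at HS3, 57.8 to 82.4 at HS7 and 19.0 to 21.5 at HS14. Among them S100b, the neighbour of Pdgfra, had a mean of 14.2 CPM in Control and 6.06 at HS7, whereas Erbb3 had 11.2 and 62.0 CPM and Ngfr 0.735 and 2.01 CPM.

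The 3 matched tenocyte markers summed to 80.1 to 80.9 CPM in Control, 7.80 to 8.74 at HS1, 120.9 to 133.3 at HS3, 32.7 to 38.1 at HS7 and 25.0 to 32.9 at HS14. The sum had the same order of groups as Pdgfra apart from an overlap of HS7 and HS14, but it was mostly Thbs4. In Control the means were 70.4 CPM for Thbs4, 8.11 for Fmod and 1.95 for Mkx. Thbs4 and Fmod were lowest in HS1, whereas Mkx was lowest in HS7, with a mean of 0.440 CPM against 0.730 at HS1. Lyz2, the 1 immune marker matched, had means of 1.2 ± 0.0900 CPM in Control, 1.39 ± 0.00295 at HS1, 5.89 ± 2.01 at HS3, 1.01 ± 0.641 at HS7 and 2.07 ± 0.195 at HS14 (SD, n = 2). It was an upregulated DEG at HS3 (log2 fold change 2.30; 0.777% of all genes), the group in which the 3 genes were highest. The study listed Lyz2 for HS3 alone, so this call was in part fixed by the choice. The part of the mix of cells in the course of Pdgfra, Fgf10 and Wnt5a was not tested.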

How the data were processed

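The authors mapped reads of the 10 libraries with STAR and deposited raw counts of 32622 Ensembl genes from featureCounts 1.6.4, with no normalization. The submitters' processing notes name the build Rnor_6.0 and the methods mRatBN7.2. Options for pairs and strand in counting are not given in the sources used here. Symbols came from the study's list of called genes (770 of 817 identifiers).

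Each comparison was fitted on its 4 libraries in edgeR 4.0.16 (R 4.3.3, limma 3.58.1) with filterByExpr, TMM, the robust quasi-likelihood test and Benjamini-Hochberg adjustment over all genes tested. Thresholds for DEGs (0.01 for the adjusted p, 1.5 for the log2 fold change) followed the study. Standard errors came from the fold change and its F statistic. Correlations used log2 CPM with a prior count of 2, and ratios had 0.5 counts added. Floors cover counting error only. On simulated counts for HS7 against HS3 (13164 genes), 200 of 200 genes changed by a log2 of 2 were recovered with 0 false calls. That covers changes of this size alone, and the change of Wnt5a in this step was smaller (log2 fold change -1.35).

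The 3 genes and all lists were chosen with earlier results of these data known. By rule, the text names the 3 genes, the 3 most correlated with each, matched partners and DEGs of the pathway lists, and set markers. Of 13 cell cycle markers 0 were matched. Alternatives were DESeq2 1.42.0, RLE factors, no filter, all 10 libraries in 1 fit, a replicate block and leaving out each library.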

Additional observations from a re-analysis of the deposited data

Results flagged for a closer look

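For each of the 3 genes, both HS3 libraries lay above both Control libraries while both libraries of HS1, HS7 and HS14 lay below them, so the change against Control had opposite signs. The changes of Fgf10 at HS3 and of Wnt5a at HS7 fell short of the adjusted p in edgeR. Between HS3 and HS1 the log2 fold change was 3.29 for Pdgfra, 3.29 for Fgf10 and 2.7 for Wnt5a. These differences were not tested, since the study listed all 3 genes as lower in HS1, which in part fixes a rise from HS1. Between HS7 and HS3 it was -2.28 for Pdgfra, -5.12 for Fgf10 and -1.35 for Wnt5a, and all 3 passed the edgeR test given above. Between HS14 and HS3 it was -2.39 for Pdgfra, -3.64 for Fgf10 and -1.70 for Wnt5a, with no test. All of these comparisons use the same HS3 libraries.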

How the results depend on the processing

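Over all alternatives the falls from HS3 to HS7 stayed past the adjusted threshold of 0.01, at -2.30 to -2.27 for Pdgfra, -5.32 to -4.89 for Fgf10 and -1.55 to -1.17 for Wnt5a (log2), and no fold change of the 3 genes changed its sign. The median of the 2 matched FGF genes in HS14 against Control, 0.00, ran from -0.03 to 0.04 when each library was left out. Replicate numbers did not pair the libraries, since their deviations correlated between -0.0165 and 0.0417 over 10 pairs of groups. The HS14 against HS7 step depended on settings: Fgf10 (1.5 log2, short of the threshold) passed with no expression filter (1.5) and with all 10 libraries in 1 fit (1.48), and Wnt5a (-0.34) passed with no filter (-0.34, adjusted p = 0.000192) and with the replicate block (-0.34, adjusted p = 0.00356), the one call that the block changed among those given here. Leaving out each library, where the lone library of a group is assumed to vary like the other group, gave -0.51 to -0.14 for Wnt5a in that step and -1.25 to -1.23 for Pdgfra in HS7 against Control. The same gave 294 to 595 DEGs for HS7 against Control (472 with all libraries; lowest without the second Control library), 149 to 397 for HS14 against HS7 (267; lowest without the second HS14 library), and a median of the Wnt list in HS14 against Control of -1.76 to -1.16. Without the HS1 libraries the correlation was 0.92 for Pdgfra and Fgf10 and 0.803 for Fgf10 and Wnt5a, and leaving out each library gave 0.569 to 0.777 for the latter. An exact permutation test of the Pdgfra to Wnt5a ratio over the 5 groups gave p = 0.018 (0.00106 is the smallest possible), and 0.0667 without Control as without HS3 (0.0667). Nothing is read from it, since it uses libraries through which the genes were chosen. The cause of these shifts was not tested. With 2 libraries a group and 14 and 16 counts, Fgf10 in HS7 rests on the fewest counts among the 3 genes; some partner genes had fewer, such as Sfrp1 in HS7 with 4 and 2.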
